A study of Mus musculus with 6 samples.

Results

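Fatty acid oxidation and ketone body metabolism were examined in mouse colonic crypts through 30 genes chosen by name for their roles in the pathway. These were 2 acyl-CoA synthetases, 3 genes of the carnitine shuttle, 12 genes of the mitochondrial β-oxidation spiral and its auxiliary steps, 3 electron transfer genes, 3 peroxisomal genes, 3 ketone body genes and 4 regulators. All 30 were among the 18049 genes of the deposited table, and all 30 passed the filter on low values that 16670 genes passed. The rule was their names and used no measured value, although they were chosen with earlier results of these data known.

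The crypts came from 3 control mice and 3 mice given GSK503, a small-molecule inhibitor of the histone methyltransferase EZH2. All 6 mice were on the C57BL/6J background, carried a floxed allele deleted by *Villin-Cre*, which is active in the intestinal epithelium, and carried a humanized *TgfβRII* knock-in with a tract of 11 A bases. They model the intestine of Lynch syndrome, and both groups were fed a Western-style diet with 20% fat from 8 weeks of age. GSK503 was injected into the tail vein at 200 μg/kg in PBS, control mice received captisol in PBS by the same route, and treatment ran for 9 weeks. The labels used here give neither the sex nor the age of each mouse. Total RNA of each mouse's crypts was sequenced to between 108135462 and 135054297 estimated counts per library. The comparison asked how EZH2 inhibition altered the crypt transcriptome.

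β-Oxidation breaks fatty acids down to acetyl-CoA in mitochondria. Fatty acids are activated to acyl-CoA, passed into the matrix as carnitine esters, and shortened in repeated rounds of dehydrogenation, hydration, a second dehydrogenation and thiolysis, while the electrons reach the respiratory chain through electron transfer flavoprotein. Peroxisomes shorten the longest and branched chains, and ketogenesis turns acetyl-CoA into ketone bodies that other cells can burn. In the colon the pathway is best known for the oxidation of butyrate, a product of the gut flora and a main fuel of colonocytes. The nuclear receptors of the PPAR family induce many of its genes.

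The fatty acid oxidation genes as a group differed little between the treated and control crypts. In limma on log2(value + 0.1), with Benjamini-Hochberg adjustment over the 16670 genes, 0 of the 30 genes passed an adjusted p of 0.05, which 0.642% of all genes passed, and 0 passed 0.1, which 1.97% of all genes passed. At an unadjusted p under 0.05 there were 5 genes, or 16.7% of the 30, against 13.3% of all genes, and limma-voom on recovered counts also gave 0 at an adjusted p of 0.05. The same 5 genes were those whose treated and control values did not overlap, against 19.1% of all genes with no overlap. *Acsl1* and *Oxct1* lay higher in every treated mouse (9.84% of all genes did so), and *Cpt1a*, *Etfa* and *Ppara* lay lower in every treated mouse (9.22% of all genes).

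The sizes of the differences were small. The median log2 fold change (log2FC, treated against control) of the 30 genes was -0.02, beside -0.01 for all genes tested, and the median of their absolute log2FC was 0.09, beside 0.16. Mean values were higher in the treated group for 14 genes, or 46.7%, and lower for 16, beside 48.9% of all genes higher. The 95% interval of the fold change lay within 1.5-fold in both directions for 28 genes, or 93.3%, beside 54.7% of all genes. The median standard error was 0.09 for these genes and 0.14 for all genes, and the exceptions to the 1.5-fold bound were *Acsl1*, with a fold change between 1.14 and 1.67, and *Acaa1b*, with one between 0.429 and 1.16. These values are relative to the TMM scaling (trimmed mean of M values) of the deposited table. With each library divided by its own sum, the median of all genes shifted to -0.12 and that of the 30 genes to -0.14. Of the 30 genes, 3 were then higher and 27 lower, so that 10% were higher, beside 30.2% of all genes. The median of the 30 genes relative to that of all genes was -0.02 under both scalings.

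**Figure D1:**
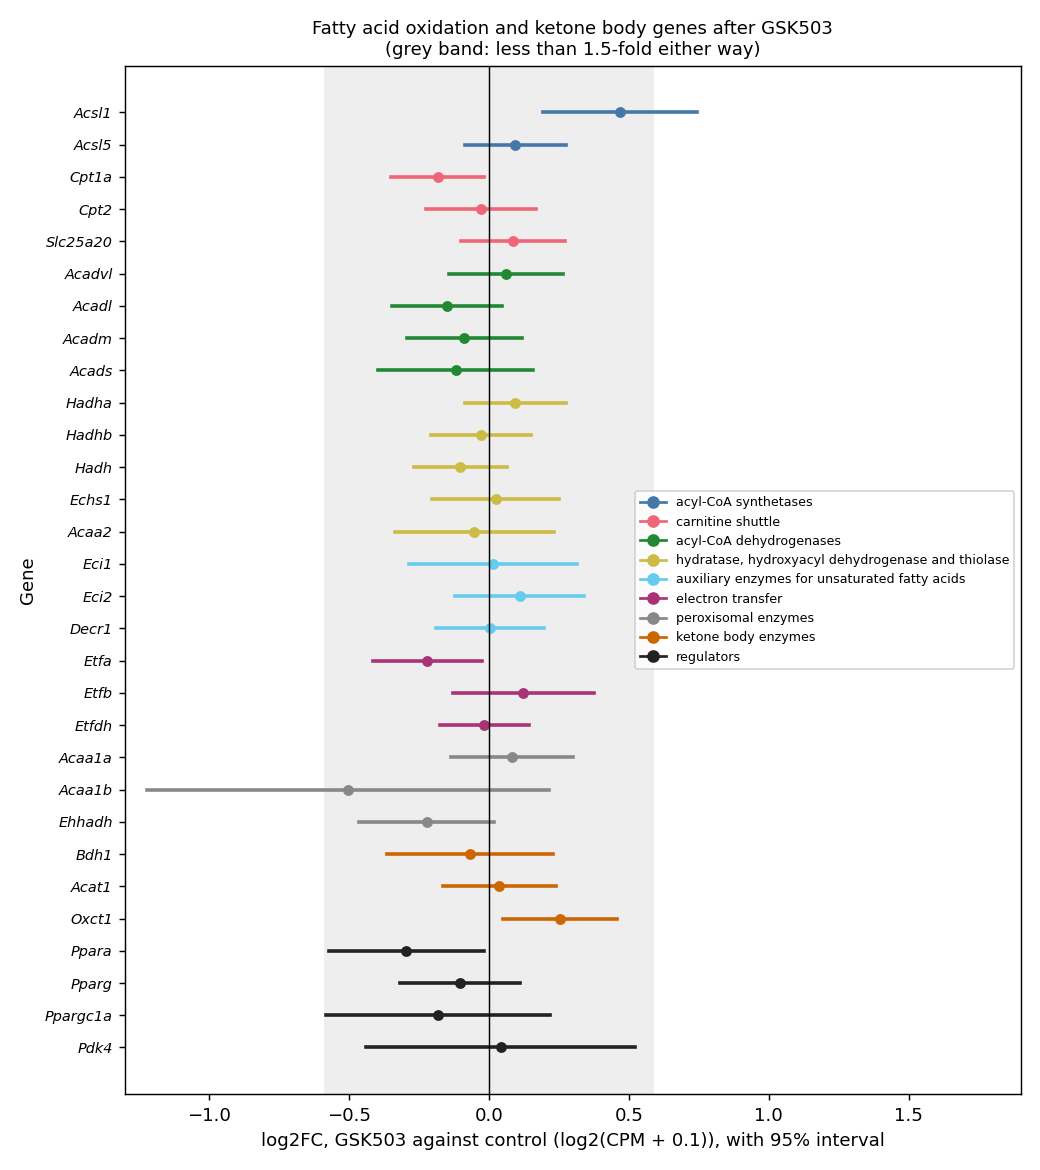
The log2FC of each of the 30 genes, treated against control (x axis, log2(CPM + 0.1)), with its 95% interval from limma, in order of role and coloured by role. 28 of the 30 intervals lie inside the grey band, which marks less than 1.5-fold in either direction, and those of *Acsl1* and *Acaa1b* leave it.

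The levels below are in CPM, read counts scaled to the size of the library with TMM factors. The summed level of the 30 genes was 3988, 3991 and 3579 CPM in the control mice and 3924, 4008 and 3632 CPM in the treated mice, or 3853 ± 237 against 3855 ± 197 (SD, n = 3). As a share of all counts of the library, the sum came to 0.406%, 0.408% and 0.367% among the controls against 0.368%, 0.372% and 0.351% among the treated mice. Both measures overlapped between the groups, the second through control mouse 3. Summed by role, the acyl-CoA synthetases were at 246 ± 20.7 and 275 ± 10.97 CPM, the carnitine shuttle at 549 ± 28.8 and 516 ± 17.5 CPM, and the acyl-CoA dehydrogenases at 696 ± 45.4 and 671 ± 51.0 CPM. The enzymes of ketone body metabolism summed to 616 ± 34.2 and 669 ± 50.5 CPM, and the regulators to 130 ± 18.6 and 117 ± 4.64 CPM. In these bulk samples, fewer cells of a type and less RNA per cell cannot be told apart.

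The spread within groups followed individual mice. Control mouse 3 had the lowest value of its group for 22 of the 30 genes, and treated mouse 3 the lowest of its group for 25 of the 30. The same shares over all genes were not computed, so these counts are not shown to be particular to the 30 genes. The epithelial markers *Krt8*, *Epcam* and *Cldn7* summed to 7748, 7385 and 6736 CPM in the control mice and to 8512, 8431 and 7254 CPM in the treated mice, so that the same mice had the lowest sums. *Krt8* made up most of the sum, at 6090, 5966 and 4889 CPM in the treated mice. *Epcam* alone was nearly equal in the treated mice, at 1965, 2032 and 1991 CPM, and was lowest in treated mouse 1. In the control mice it was at 2021, 2022 and 1802 CPM. Treated mouse 3 also stood apart in markers of other tissue. The 6 smooth muscle markers summed to 122 CPM in it against 4.52 and 4.26 CPM in the other treated mice, the 6 fibroblast markers to 113 against 25.1 and 33.8 CPM, and the 7 macrophage markers to 65.0 against 10.1 and 6.19 CPM. Among the controls these sums ran from 20.9 to 90.1 CPM, 60.2 to 77.1 CPM and 27.1 to 47.0 CPM. The part of these markers in the values of the 30 genes was not tested. The balance of 14 higher and 16 lower genes moved with these libraries: it was 7 and 23 without control mouse 3, and 18 and 12 without treated mouse 3. The share of higher genes was 23.3% and 60% in these fits, beside 49.9% and 50.3% of all genes. Even so, the spread was modest, with a median coefficient of variation over the 30 genes of 8.83% in the control mice and 7.59% in the treated mice. The median over all genes, which include genes of lower level than any of the 30, was 12.5% and 11.3%.

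**Figure D2:**
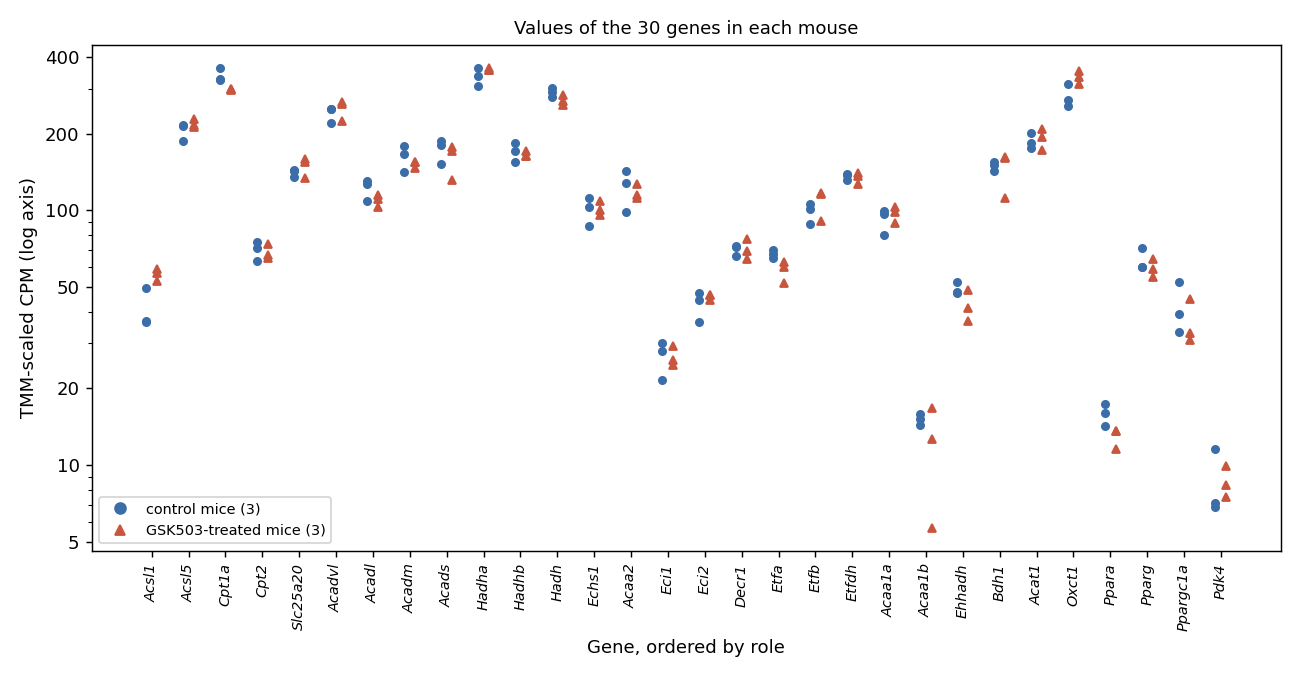
Values of the 30 genes in each of the 3 control mice (circles) and 3 treated mice (triangles), in TMM-scaled CPM on a log axis, with genes on the x axis in order of role. The treated and control points overlap for 25 genes, and the lowest points belong to *Acaa1b*, *Ppara* and *Pdk4*.

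Other differences between the groups lie beside every comparison made here. *Xist*, transcribed from the inactive X chromosome, measured 0.419, 0.805 and 0.936 CPM in the control mice and 1236, 825 and 982 CPM in the treated mice, while the Y-linked *Uty* was at 42.5 to 53.7 CPM and 0.670 to 1.08 CPM. The groups were thus of opposite sex by these transcripts, and sex and treatment cannot be told apart. The 9 goblet cell markers summed to 10523 to 18686 CPM in the control mice and 31773 to 50339 CPM in the treated mice, with 9 of 9 higher and 3 of 9 past an adjusted p of 0.05. The 8 enteroendocrine markers summed to 203 to 252 CPM and 130 to 165 CPM, with 7 of 8 lower and 3 of 8 past that threshold. The 10 surface colonocyte markers, from the cells that take up butyrate, summed to 4231, 4079 and 4268 CPM and to 6745, 4557 and 3117 CPM, with 9 of 10 higher on average and 0 of 10 past the threshold. The adipocyte markers summed to 10.02 to 14.4 CPM over all 6 mice. That sum covers 6 of the 7 markers listed, because *Adipoq* was not among the genes of the deposited table. The part of these cell types in the values was not tested. *Ezh2*, the target of the drug, which acts on the protein, was at 46.7, 37.4 and 46.5 CPM in the control mice and 36.6, 35.2 and 36.3 CPM in the treated mice, with a log2FC of -0.27 and an adjusted p of 0.291 in limma.

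Per kilobase of canonical transcript, a scale on which genes can be compared, genes of the mitochondrial spiral held most of the highest ranks. In the control crypts *Hadh*, the short-chain hydroxyacyl-CoA dehydrogenase, had the highest mean of the 30 genes, at 162 CPM per kb, and held 155 to 169 in the control mice and 144 to 159 in the treated mice. *Etfb*, whose count is less certain because of an overlapping gene, followed at 110, *Acadvl* at 108, and *Acads*, which acts on the short chains that include butyrate, at 92.5. *Etfb* and *Acadvl* overlapped across the control mice, at 99.1 to 119 and 99.4 to 113. *Hadhb* (83.4), *Hadha* (83.0), *Oxct1* (79.3), *Acadm* (78.7) and *Slc25a20* (78.6) were closely spaced, with differences within the spread between mice. The lowest were *Acsl1* (7.07), *Ppargc1a* (6.41), *Ppara* (4.47) and *Pdk4* (2.27).

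Among the genes that activate fatty acids, *Acsl1* had the largest positive log2FC of the 30. *Acsl1*, which encodes a long-chain acyl-CoA synthetase of the mitochondrial surface and the endoplasmic reticulum (ENSMUSG00000018796, GRCm39 chr8:46924063-46990145, plus strand), was at 49.7, 36.3 and 36.6 CPM in the control mice and at 52.6, 58.6 and 56.8 CPM in the treated mice. All 3 treated mice were above all 3 controls, with control mouse 1 close to the treated range. The means were 40.9 ± 7.66 and 56.0 ± 3.09 CPM (SD, n = 3), the log2FC was 0.47 (SE 0.12), and the adjusted p in limma was 0.135. Without control mouse 1 the log2FC was 0.62 and the adjusted p 0.022, the only adjusted p under 0.05 that any of the 30 genes reached under any alternative tried. Its partner *Acsl5*, the more abundant acyl-CoA synthetase of the intestine, was at 206 ± 16.3 and 219 ± 9.06 CPM, with overlapping groups and an adjusted p of 0.661.

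The carnitine shuttle carries activated fatty acids through the inner mitochondrial membrane, and its first enzyme, encoded by *Cpt1a*, is the step at which malonyl-CoA controls the pathway. *Cpt1a* (ENSMUSG00000024900, GRCm39 chr19:3371853-3437996, plus strand) was at 326, 363 and 328 CPM in the control mice and at 299, 298 and 298 CPM in the treated mice. The treated mice were nearly identical and all below the controls. The means were 339 ± 20.8 and 298 ± 0.505 CPM, with a log2FC of -0.18 (SE 0.07), a fold change between 0.785 and 0.988 at 95%, and an adjusted p of 0.330 in limma. *Cpt2*, the matrix-side transferase, was at 69.8 ± 5.98 and 68.4 ± 4.41 CPM. *Slc25a20*, the carrier that exchanges acylcarnitine for carnitine, was at 140 ± 5.02 and 149 ± 13.4 CPM, so the shuttle genes did not share a direction.

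The 250 bases before the canonical start of *Cpt1a* are shown because they hold the half-site that nuclear receptors such as the PPARs bind, AGGTCA, which is read here on the minus strand and marked in capitals on the plus strand. The sequence is from the GRCm39 genome.
Cpt1a, chr19:3373021-3373270, plus strand: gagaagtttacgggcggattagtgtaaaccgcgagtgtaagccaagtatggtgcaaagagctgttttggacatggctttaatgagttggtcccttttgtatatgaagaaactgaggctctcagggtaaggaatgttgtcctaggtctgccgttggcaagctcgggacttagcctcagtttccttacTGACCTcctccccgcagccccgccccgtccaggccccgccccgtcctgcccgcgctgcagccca
A single match of 6 letters is common. On both strands of the 250 bases before and 50 after the canonical start, AGGTCA was found in 5 of the 30 genes (*Acadvl*, *Cpt1a*, *Echs1*, *Hadha* and *Oxct1*), or 16.7%, and in 15.1% of 21757 protein-coding promoters. The full PPAR element, a direct repeat of AGGTCA with 1 base of any kind between the copies, which contains the half-site, was in 0 of the 30 windows and in 0.046% of all. The estrogen-related receptor element TCAAGGTCA, which also contains it, was in 0 of the 30 and in 0.473% of all. The site of the mitochondrial biogenesis factor NRF1, spelled GCGCA, any base, GCGC, was in 3 of the 30 (*Acaa2*, *Etfb* and *Etfdh*), or 10%, and in 5.81% of all. The median GC content of the 30 windows was 59.8%, against 54.3% for all, and the ratio of observed to expected CpG was at least 0.6 in 14 of the 30, or 46.7%, against 43.3% of all.

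The 4 acyl-CoA dehydrogenases, which begin each round and divide the substrates by chain length, overlapped between the groups. *Acadvl*, for very long chains, was at 239 ± 17.0 and 250 ± 22.6 CPM. *Acadl*, for long chains, was at 122 ± 11.5 and 109 ± 5.90 CPM. *Acadm*, for medium chains, was at 162 ± 18.6 and 152 ± 4.93 CPM, and *Acads*, for short chains, at 173 ± 18.3 and 160 ± 25.0 CPM. Their log2FC ran from -0.15 for *Acadl* to 0.06 for *Acadvl*, and their adjusted p in limma from 0.502 to 0.819.

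*Hadha* and *Hadhb* encode the α and β subunits of the mitochondrial trifunctional protein, which carries out the hydration, second dehydrogenation and thiolysis of long chains in a single complex. The genes stand head to head on chromosome 5, *Hadha* (ENSMUSG00000025745, GRCm39 chr5:30323302-30360187) on the minus strand and *Hadhb* (ENSMUSG00000059447, chr5:30359204-30389997) on the plus strand. Their canonical starts are separated by 64 bases, which are shown because they lie between the starts of a pair whose ratio did not overlap between the groups.
Hadha-Hadhb gap, chr5:30360182-30360245, plus strand: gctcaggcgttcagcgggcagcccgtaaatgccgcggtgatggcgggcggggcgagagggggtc
None of the 4 motifs searched lies in these 64 bases, which says only that those letters are not in this window.

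Neither subunit gene passed the test on its own. *Hadha* was at 335, 362 and 308 CPM in the control mice and at 356, 361 and 353 CPM in the treated mice, with an adjusted p of 0.660 in limma. *Hadhb* was at 170, 184 and 155 CPM and at 171, 164 and 163 CPM, with an adjusted p of 0.921. Within each mouse, however, the ratio of *Hadha* to *Hadhb* was 1.97, 1.97 and 1.99 among the controls against 2.08, 2.21 and 2.17 among the treated mice. The ratio was higher in every treated mouse than in any control, and the control mice were nearly equal. How often the ratios of other gene pairs separate the groups was not computed. The mean log2 ratio was 0.98 ± 0.01 and 1.11 ± 0.04 (SD, n = 3), a difference of 0.12 that stayed between 0.10 and 0.15 when each mouse was left out in turn. The two-sided exact permutation test gave p = 0.1, the smallest that 3 against 3 mice allow. The exons of the 2 genes overlap by 932 bases on opposite strands, and 11 of the 30 genes overlap exons of another protein-coding gene in this way. *Hadha* also overlaps *Garem2* on the opposite strand over 2033 bases, or 21.3% of its exonic bases. The strand setting of the counting is not given in the sources used here.

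The other enzymes of the spiral were close to equal in both groups. *Hadh* was at 291 ± 12.7 and 271 ± 13.0 CPM, and *Echs1*, the short-chain enoyl-CoA hydratase, at 101 ± 12.9 and 102 ± 6.28 CPM. *Acaa2*, the mitochondrial thiolase, was at 123 ± 22.7 and 118 ± 8.27 CPM. The 3 auxiliary enzymes that let unsaturated fatty acids enter the spiral, the isomerases *Eci1* and *Eci2* and the dienoyl-CoA reductase *Decr1*, had log2FC of 0.02, 0.11 and 0.00. All 6 had overlapping groups, with adjusted p in limma between 0.593 for *Hadh* and 0.993 for *Decr1*.

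*Etfa* and *Etfb* encode the α and β subunits of electron transfer flavoprotein, which takes electrons from the acyl-CoA dehydrogenases. *Etfa* (ENSMUSG00000032314, GRCm39 chr9:55361714-55419792, minus strand) was at 70.0, 67.4 and 64.8 CPM in the control mice and at 59.7, 62.4 and 51.9 CPM in the treated mice, all of them below the controls. The means were 67.4 ± 2.62 and 58.0 ± 5.45 CPM, with a log2FC of -0.22 (SE 0.09) and an adjusted p of 0.314 in limma. *Etfb* was at 101, 106 and 88.5 CPM in the control mice and at 116, 117 and 90.4 CPM in the treated mice, with an adjusted p of 0.687. *Etfdh*, which passes the electrons on to ubiquinone, was at 136 ± 3.75 and 134 ± 7.24 CPM.

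The ratio of *Etfa* to *Etfb* separated the groups, as *Etfa* alone already did. Among single genes 19.1% had no overlap, and the share among ratios of other gene pairs was not computed. It was 0.691, 0.637 and 0.732 among the controls against 0.515, 0.534 and 0.574 among the treated mice, lower in every treated mouse. The mean log2 ratio was -0.54 ± 0.10 and -0.89 ± 0.08 (SD, n = 3), a difference of -0.34 that lay between -0.40 and -0.30 when 1 mouse was removed, and the exact permutation test again gave its smallest possible p of 0.1. Of the annotated exonic bases of *Etfb*, 617, or 39.6%, are shared on the same strand with the overlapping gene *Etfbl*, so the count of *Etfb* is less certain than that of its partner.

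**Figure D3:**
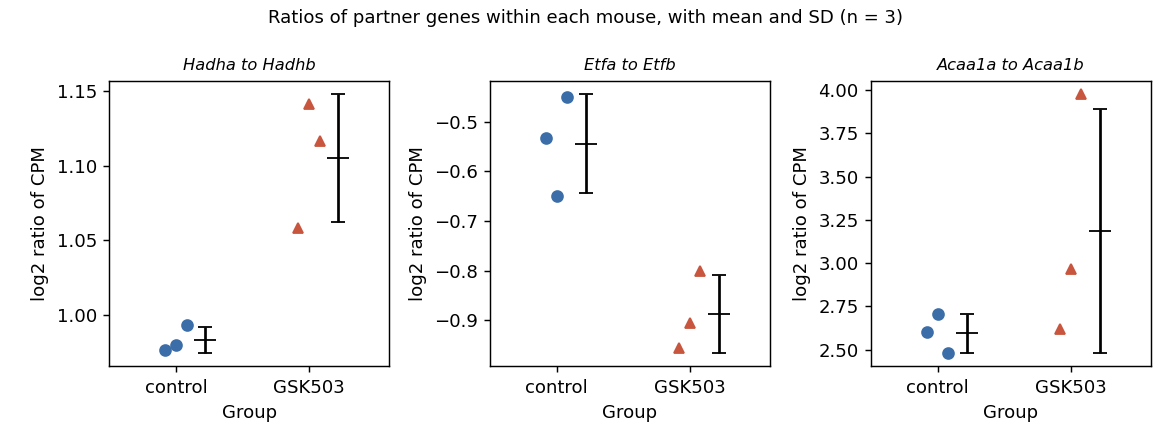
The log2 ratio of CPM of *Hadha* to *Hadhb*, *Etfa* to *Etfb* and *Acaa1a* to *Acaa1b* within each mouse (y axis), in control mice (circles) and treated mice (triangles), with the mean and SD of 3 mice as a bar. The groups do not overlap for the first and the second pair, and the third is spread by 1 treated mouse.

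The peroxisomal genes held the least stable gene of the 30. *Acaa1a* and *Acaa1b* encode near-identical thiolases of the last peroxisomal step. *Acaa1a* (GRCm39 chr9:119168742-119182956, plus strand) was at 96.5, 99.2 and 80.1 CPM in the control mice and at 103, 98.5 and 89.4 CPM in the treated mice. *Acaa1b* (chr9:118977091-118986161, minus strand) was at 15.9, 15.2 and 14.4 CPM in the control mice and at 16.8, 12.6 and 5.68 CPM in the treated mice. Treated mouse 3 stood apart at 5.68 CPM, and the log2FC of -0.50 (SE 0.32) had an adjusted p of 0.542 in limma. Without that mouse the log2FC was -0.06, and without treated mouse 1 it was -0.83. Of the windows of 76 bases, the read length, along the canonical transcripts, 26.3% of those of *Acaa1a* and 28.3% of those of *Acaa1b* were identical in the other, so that reads can be split between them. The ratio of *Acaa1a* to *Acaa1b* was 6.09, 6.52 and 5.58 among the controls against 6.14, 7.81 and 15.8 among the treated mice, with a log2 difference of 0.59 and an exact permutation p of 0.2. Without treated mouse 3 the difference was 0.20. *Ehhadh*, the peroxisomal bifunctional enzyme, was at 49.1 ± 2.88 and 42.3 ± 5.996 CPM, with an adjusted p of 0.418.

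The ketone body genes included the second gene that was higher in every treated mouse. *Oxct1* (ENSMUSG00000022186, GRCm39 chr15:4055638-4184828, plus strand) encodes the CoA transferase that lets cells use ketone bodies as fuel. It was at 312, 270 and 257 CPM in the control mice and at 314, 350 and 333 CPM in the treated mice. The highest control and the lowest treated mouse nearly touched. The means were 280 ± 29.1 and 333 ± 18.1 CPM, with a log2FC of 0.25 (SE 0.09), a fold change between 1.03 and 1.37 at 95%, and an adjusted p of 0.270 in limma. *Oxct1* also overlaps an antisense transcript, *Oxct1as*, over 558 exonic bases. *Bdh1*, which interconverts acetoacetate and β-hydroxybutyrate, was at 155, 143 and 150 CPM and at 162, 160 and 112 CPM, and treated mouse 3 was the only one of its group below the controls. Its log2FC was -0.07 (SE 0.13) and its adjusted p 0.876. *Acat1*, the mitochondrial acetoacetyl-CoA thiolase, was at 187 ± 13.4 and 192 ± 17.8 CPM.

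**Figure D4:**
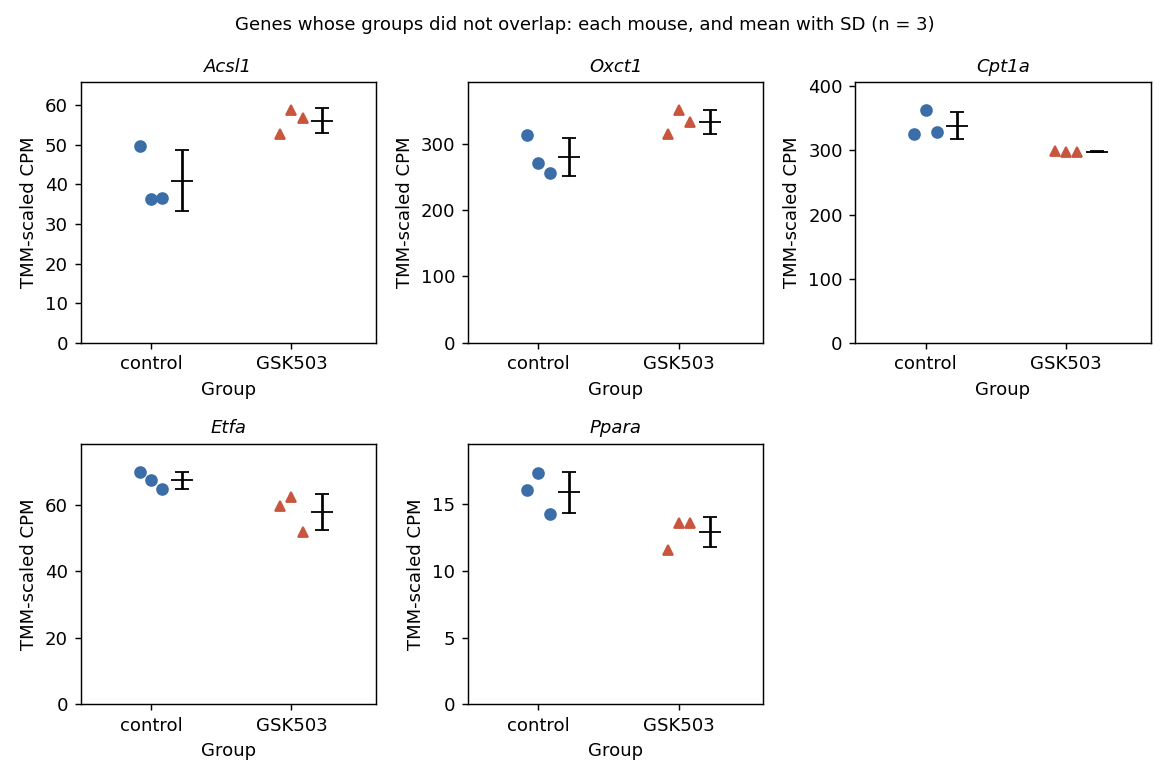
TMM-scaled CPM of *Acsl1*, *Oxct1*, *Cpt1a*, *Etfa* and *Ppara* in each control (circles) and treated mouse (triangles), with the mean and SD of 3 mice as a bar, on axes that start at 0. No treated mouse overlaps the controls in any of the 5 panels, and the gaps are narrow for *Oxct1* (312 against 314 CPM) and *Acsl1* (49.7 against 52.6 CPM).

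Of the regulators, *Ppara* was lower in every treated mouse. *Ppara* (ENSMUSG00000022383, GRCm39 chr15:85618656-85687067, plus strand), the nuclear receptor that induces fatty acid oxidation in fasting, was at 16.0, 17.3 and 14.2 CPM in the control mice and at 11.6, 13.6 and 13.6 CPM in the treated mice. The means were 15.9 ± 1.56 and 12.9 ± 1.14 CPM, with a log2FC of -0.30 (SE 0.12) and an adjusted p of 0.342 in limma. Exons of *Ppara* overlap those of *Cdpf1* on the opposite strand over 1803 bases, or 27.4% of its exonic bases. *Pparg*, the family member that is abundant in colonic epithelium, was at 71.4, 60.0 and 60.1 CPM and at 64.3, 59.0 and 54.8 CPM. *Ppargc1a*, a coactivator of the PPARs and of mitochondrial biogenesis, was at 52.1, 33.2 and 38.98 CPM and at 33.1, 31.0 and 44.9 CPM. Both overlapped between the groups, with adjusted p of 0.695 and 0.710. *Pdk4*, the kinase that turns cells from glucose to fat by switching off pyruvate dehydrogenase, was at 11.6, 7.13 and 6.85 CPM and at 9.93, 8.33 and 7.46 CPM. Control mouse 1 was its highest value, and the log2FC was 0.04 (SE 0.21), with a coefficient of variation of 31.2% in the control mice, the highest of the 30 genes there.

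Genes that neighbour the pathway were read from lists of the same kind. Of 114 such genes tested, 0 passed an adjusted p of 0.05 in limma and 2 passed 0.1, while 13, or 11.4%, had an unadjusted p under 0.05, 3 of them higher and 10 lower, beside 13.3% of all genes. Groups did not overlap for 19, or 16.7%, beside 19.1% of all genes. The count of 2 at 0.1 rested on single libraries and on the model. It was 0 without control mouse 2 or 3, without treated mouse 1 or 2, with the replicate block and without the intensity trend, 1 without control mouse 1, 4 without treated mouse 3 and 11 with library size alone. *Creb3l3*, which encodes a membrane-bound transcription factor that works with PPARα in fasting, was at 1.44, 1.53 and 1.78 CPM in the control mice and at 6.21, 3.15 and 3.75 CPM in the treated mice. All treated mice were above the controls, with a log2FC of 1.36 (SE 0.28) and an adjusted p of 0.0699. *Vnn1*, a PPARα target that encodes a pantetheinase, was at 16.0, 22.9 and 19.4 CPM and at 13.6, 11.9 and 9.76 CPM, lower in every treated mouse, with a log2FC of -0.72 (SE 0.16) and an adjusted p of 0.0917. Over the alternatives the adjusted p ran from 0.053 to 0.219 for *Creb3l3* and from 0.044 to 0.327 for *Vnn1*.

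By list, the median log2FC was -0.02 over 18 other genes of fatty acid import and activation, -0.03 over 17 peroxisomal genes, -0.02 over 17 other mitochondrial genes and -0.05 over 24 PPAR targets outside oxidation. It was 0.02 over 28 other regulators. The 17 other genes of ketone body and butyrate handling had the highest median of these lists, 0.18, with 14 of the 17 above 0, beside 48.9% of all genes, and 0 past an adjusted p of 0.1. Its median was 0.07 with library size alone, 0.09 without treated mouse 2 and 0.10 without control mouse 3. Some genes of that list had an unadjusted p under 0.05 and were named after their values were seen. *Acat2*, the cytosolic acetoacetyl-CoA thiolase (log2FC 0.40, adjusted p 0.144 in limma), and *Slc16a3*, a monocarboxylate transporter (0.77, adjusted p 0.216), were on the higher side. *Slc5a8*, the sodium-coupled transporter of butyrate (-0.25, adjusted p 0.219), was on the lower side.

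Other pathways of the same organelle or the same substrate were read for comparison. The median log2FC was 0.06 over 33 nuclear subunits of oxidative phosphorylation, of which 29 were above 0, and 0.07 over 15 citrate cycle genes, of which 13 were above 0. Of all genes, 48.9% were above 0. *Sdha* and *Sdhb* stand in both lists, so the lists are not independent. The median was 0.08 over 17 fatty acid synthesis genes. With library size alone all 3 medians turned to the lower side, at -0.05, -0.05 and -0.03, in step with the median of all genes. Single mice also moved them. The median of the oxidative phosphorylation genes ran from 0.00 without control mouse 3 to 0.13 without treated mouse 3 and moved by over 1.5 times with each of the 6 mice, that of the citrate cycle genes was 0.04 and 0.12 without the same mice, and that of the fatty acid synthesis genes was 0.01 without control mouse 2, 0.15 without control mouse 3 and 0.14 without treated mouse 3. None of these genes passed an adjusted p of 0.1 in limma. Those with an unadjusted p under 0.05, named after their values were seen, were *Ndufs7* (log2FC 0.26) and *Cox6a1* (0.23) of oxidative phosphorylation, *Idh3a* (0.17) of the citrate cycle, and *Acly* (0.34) and *Acacb* (-0.59) of fatty acid synthesis. *Acacb* encodes the acetyl-CoA carboxylase whose product, malonyl-CoA, restrains the carnitine shuttle. Whether the lists differ from the 30 genes was not tested.

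**Figure D5:**
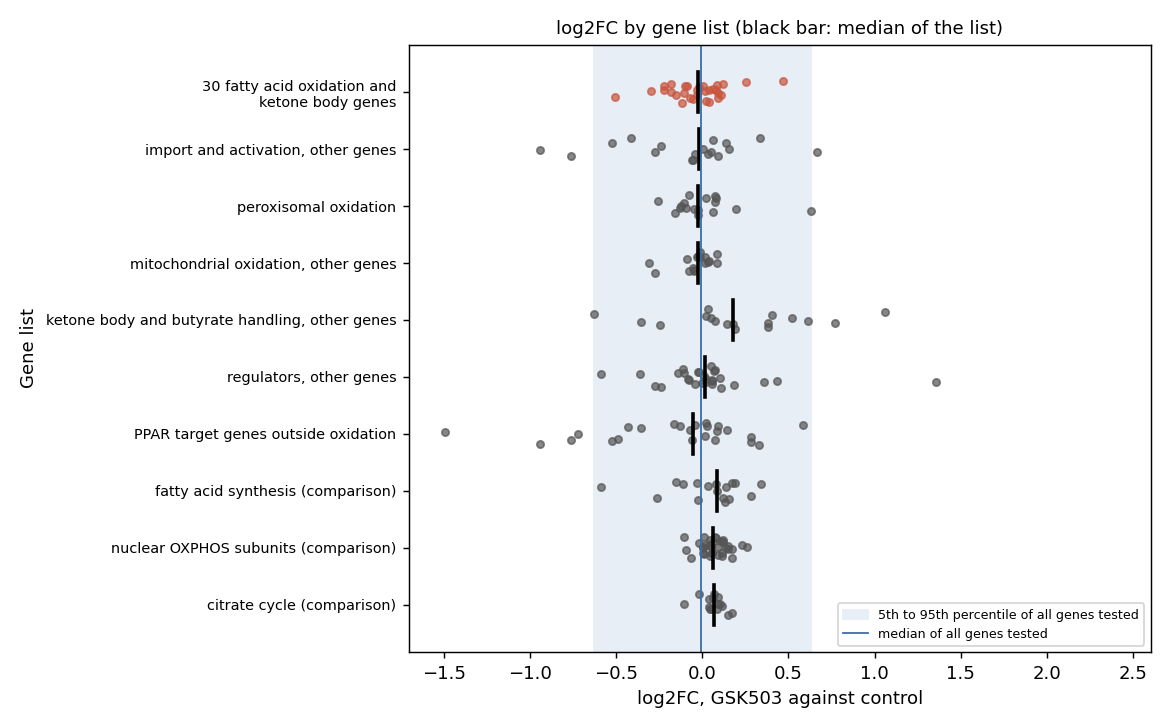
The log2FC of each gene (x axis) by gene list (y axis), with the median of each list as a black bar, the median of all genes tested as a blue line and their 5th to 95th percentile, -0.63 to 0.63, as a shaded band. All 30 fatty acid oxidation genes lie within the band, and *Creb3l3*, at 1.36, is the point farthest to the right.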

How the data were processed

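RNA of colonic crypts from 6 mice was sequenced as paired-end 76 bp reads of stranded total RNA libraries. The authors aligned reads to GRCm39 with STAR, estimated counts with RSEM and scaled them with TMM in edgeR. The deposited table is named for counts, but its signal values are TMM-scaled CPM, and no test for counts was the main test. Below 0.6, 86.2 to 88.2% of values were whole multiples (within 0.02) of 1 step per library, which gives the estimated totals. A floor of 3 counts is 0.0228 to 0.0271 CPM, for counting error only. Any gene filter of the authors is not given in the sources used here.

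Genes of at least 0.1 CPM in at least 3 mice (16670, with 1379 left out) were fitted with limma 3.58.1 (R 4.3.3, intensity trend) on log2(value + 0.1), so that fold changes of low genes are understated. P-values were two-sided and adjusted by Benjamini-Hochberg, and 95% intervals came from the same fit, with t quantiles from scipy 1.17.1. Ratios were compared by exact permutation tests coded with numpy 2.4.6. Positions and transcripts are from GENCODE M39. On simulated data, 200 of 200 changed genes were found among 16670, with 7 false calls. Whether differences as small as those of the fatty acid oxidation genes would be found was not tested. Libraries correlated at 0.977 to 0.990 and no pair was identical.

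The members and gene lists were chosen with earlier results of these data known. All members are accounted for. Values of every mouse are given for those with an adjusted p below 0.1 or without overlap between groups, for Cpt1a, Bdh1, Ppara, Pparg, Ppargc1a, Pdk4 and the ratio pairs, and from the neighbouring lists for genes with an adjusted p below 0.1. A gene that the rule also names is not reported here. The alternatives covered scaling, filter, pseudocount, variance model, a replicate block and leaving out each mouse.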

Additional observations from a re-analysis of the deposited data

How the results depend on the processing

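Under 17 alternatives the 30 genes kept their direction in 476 of 510 values, 13 genes kept it under every alternative, and *Acsl1* alone passed an adjusted p of 0.05, under 1 of them. Changing the filter, the intensity trend or the moderation of the variance, or adding the replicate block, cannot alter the log2FC of a gene. The direction under those alternatives was therefore fixed in advance, and the 476 values include them. With one mouse left out, 0 to 1 of the 30 genes passed 0.05, 0 to 1 passed 0.1, and the median log2FC ran from -0.09 to 0.05. Among the neighbouring genes 0 to 1 passed 0.05 (*Fabp4*, log2FC -2.89, adjusted p 0.0253 without treated mouse 3, and -1.49 with all mice). *Fabp4* was at 0.677, 1.37 and 0.732 CPM in the control mice and 0.0424, 0.0239 and 2.34 CPM in the treated mice. Treated mice 1 and 2 were thus below 0.1 CPM and at or near the floor of 3 counts, and treated mouse 3 had the highest value of all 6 mice. The size of the *Fabp4* change is therefore uncertain. With library size alone, 2 of the 30 genes passed 0.1 (*Cpt1a* and *Etfa*, beside 6.03% of all genes), 2 neighbouring genes passed 0.05 (*Crot*, adjusted p 0.0463, and *Vnn1*, 0.0439), and the median log2FC of the 30 genes was -0.14, which moved with the median of all genes. Over all genes, the count at 0.05 was 107, with 16 without the intensity trend, 260 with library size alone and 30 to 229 with one mouse left out. The adjusted p ran from 0.070 to 0.492 for *Etfa* and 0.183 to 0.665 for *Oxct1*. Same-numbered mice of the groups did not deviate together (correlations 0.03, -0.13 and -0.12), so the replicate numbers do not pair them. With the replicate block, 0 of the 30 genes passed 0.05, and 33 of all genes did. *Fabp4* and *Crot* were named after their values were seen. The cause of these shifts was not tested.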
